A study of Homo sapiens with 6 samples.

Results

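A set of 10 well-studied human long noncoding RNAs (lncRNAs) was followed from transcription to steady-state level in K562 cells, an established chronic myelogenous leukemia cell line. The genes were taken from a fixed list of 10 symbols, NEAT1, MALAT1, KCNQ1OT1, TUG1, NORAD, PVT1, CCDC26, OIP5-AS1, LINC-PINT and FTX, and each was found in the count files through the transcript identifiers that GENCODE assigns to it. All 10 genes were found, through 12 of the 37339 counted transcripts that matched the annotation (37192 genes). The rule that lists them uses no measured value, though the genes were chosen with earlier results of these data known. It holds 3 RNAs known from textbooks as nuclear, NEAT1, MALAT1 and KCNQ1OT1, and 2 known as cytoplasmic, NORAD and OIP5-AS1. Their comparison asks how steady-state level relates to transcription for RNAs that stay in the nucleus and for RNAs that leave it.

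All 6 libraries came from untreated K562 cells, with no genetic modification named in the labels. Total RNA-seq after rRNA depletion (4 libraries) measured steady-state RNA, polyadenylated or not. PRO-seq (2 libraries), which sequences the RNA held by engaged RNA polymerases, measured transcription. According to the methods, the cells for both assays shared 1 flask, so the p-values below measure only the spread between these libraries, which may be technical.

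Long noncoding RNAs are transcribed by RNA polymerase II and mostly encode no known protein, and they differ widely in where they reside. NEAT1 is the scaffold of paraspeckles, nuclear bodies built on its long isoform. MALAT1 is retained in nuclear speckles, where splicing factors gather, and both RNAs end in a triple helix in place of a poly-A tail. KCNQ1OT1 is the imprinted antisense RNA that silences neighbouring genes in cis, and NORAD is an abundant cytoplasmic RNA that sequesters Pumilio proteins. The level of an RNA is set by how fast it is made and how fast it is lost, so the ratio of steady-state level to transcription is used as a relative half-life.

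Each counted transcript is called a transcription unit (TU). Levels are given in TPM, which corrects for length and depth: exon length served for RNA-seq, and for PRO-seq the span of the TU less 1000 bp, since reads in 500 bp at each end had been left out. The ratio of RNA-seq TPM to PRO-seq TPM is the relative half-life, reported as log2 against the median mRNA, and it carries no unit of time. The test covered every TU that had a count in each assay (21100 TUs), and was made with edgeR's quasi-likelihood method on the counts of all 6 libraries, with Benjamini-Hochberg adjustment over all of these TUs and a threshold of 0.05. The SE given with a log2 value was derived from this test, as the size of the log2 value over the square root of its F statistic.

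Counts on TUs ranged from 5732780 to 9002746 in the RNA-seq libraries and from 6993816 to 7245632 in the PRO-seq libraries. The listed genes took between 0.276% and 0.338% of the RNA-seq counts and 0.491% to 0.506% of the PRO-seq counts. The erythroid character of K562 cells was visible in RNA-seq, where HBG2, a gamma-globin gene, stood at 6287 TPM, the transferrin receptor gene TFRC at 632 TPM and the erythroid transcription factor GATA1 at 155 TPM. Of 10 erythroid markers, 9 had RNA-seq counts and ALAS2 was not among the matched TUs. The hepatocyte gene ALB was at 0.483 TPM and the epidermal keratin gene KRT5 at 0.0329 TPM, whereas PTPRC, which encodes the leukocyte antigen CD45, was at 72.5 TPM. The RNA-seq libraries fell into close pairs, replicates 1 and 3 against 2 and 4, which touched MALAT1 and is described with it.

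The coordinates below are those of GENCODE on GRCh37, joined by identifier, whereas the reads were counted on GRCh38. NEAT1 was counted on its long isoform, a single exon of 22743 bases at chr11:65190269-65213011 on the plus strand. MALAT1 follows it by 52.1 kb on the same strand, at chr11:65265159-65270435, and was counted on a transcript of 3 exons (4227 bases). KCNQ1OT1, at chr11:2629558-2721224 on the minus strand, is a single exon of 91667 bases that lies wholly within the coding gene KCNQ1 on the other strand. TUG1 (chr22:31365251-31375381, plus strand) has 3 exons and 7474 exonic bases. NORAD (chr20:34633540-34638940, minus strand) is a single exon of 5401 bases. OIP5-AS1 (chr15:41576165-41602935, plus strand) has 5 exons, and FTX (chrX:73183790-73512177, minus strand) has 6. LINC-PINT, on the minus strand of chromosome 7, was counted as 3 transcripts, of which the longest spans chr7:130476023-130792687. The annotation lists TUG1 as protein coding, so TUG1 was counted among the mRNAs and the other members among the lncRNAs.

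Sequence set NORAD apart from the other members. The Pumilio proteins bind TGTANATA, and 15 copies of these letters, read on the RNA strand, stood in the NORAD transcript between positions 819 and 4657. TGTATATA accounted for 10 of them, TGTAAATA for 4 and TGTACATA for 1, and in 3 places neighbouring copies began less than 20 bases apart. The letters were found in 9.95% of the 7073 lincRNA transcripts, whose median length was 831 bases. Of the 6491 counted transcripts of at least 4000 bases, 3 held them as densely as NORAD, NORAD included. These 6 copies are shown because they cover the 3 spellings and one of the close pairs. Each run gives 10 bases on either side, 5′ to 3′, with the element in capitals.
NORAD element 1 (chr20:34638105-34638132): ggaaggcctgTGTATATAatatgaaaaa
NORAD element 3 (chr20:34637625-34637652): aatcacatttTGTAAATAcctttttgtt
NORAD element 5 (chr20:34637415-34637442): gtgtatatagTGTACATAaaggacagac
NORAD element 12 (chr20:34635591-34635618): tactgtgctgTGTATATAgtgtatataa
NORAD element 13 (chr20:34635582-34635609): gtgtatatagTGTATATAagcggacata
NORAD element 15 (chr20:34634267-34634294): ttagcctattTGTAAATAcctttgttat

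The much longer NEAT1 and KCNQ1OT1 held 6 and 9 copies of TGTANATA, and TUG1 held 2. The counted transcripts of MALAT1, PVT1, CCDC26, OIP5-AS1 and FTX held none. The ends of NEAT1 and MALAT1 are shown because they form the triple helix, in which an A-rich tract pairs with upstream uridines. The tract was searched as AAAGCAAAA on the RNA strand, which was found in 2.91% of lincRNA transcripts, and stands in capitals. Most of these are far shorter than NEAT1. Among 67 counted transcripts of 17060 to 30320 bases, the length range set around NEAT1, 53.7% held it.
NEAT1, last 30 bases of the counted transcript (chr11:65212982-65213011): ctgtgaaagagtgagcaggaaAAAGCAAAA
MALAT1, another annotated transcript (chr11:65273558-65273587): ttttctagcttaaaaaaaaaaAAAGCAAAA

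The counted NEAT1 transcript thus ran to the tract itself. The counted MALAT1 transcript stopped 3144 bp short of it, so RNA from the last part of MALAT1 entered neither of its counts. OIP5-AS1 is known to bind miR-7 through a site for its seed, bases 2 to 8, in capitals here in the mature miRNA as RefSeq gives it (GRCh38.p14).
hsa-miR-7-5p: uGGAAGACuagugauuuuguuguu

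GTCTTCC, the letters opposite this seed, were in 9.81% of lincRNA transcripts. They were absent from the counted OIP5-AS1 transcript, whereas KCNQ1OT1 held 6 copies. The canonical polyadenylation signal AATAAA was in 60.8% of lincRNA transcripts, once in NORAD, 8 times in NEAT1 and 171 times in KCNQ1OT1. GGTAAG, which resembles a 5′ splice site, was in 12.8% of lincRNA transcripts. It stood 7 times in NEAT1, 10 times in KCNQ1OT1 and not in NORAD. The 67 transcripts in the length range of NEAT1 had a median of 14 copies of AATAAA and 1 of GGTAAG. For KCNQ1OT1 such a range held only 2 transcripts, itself included, so its counts have no comparison of like length. The G+C content of the counted transcripts ran from 37.9% in CCDC26 to 48.1% in PVT1, against a median of 45.9% over lincRNAs.

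**Figure D1:**
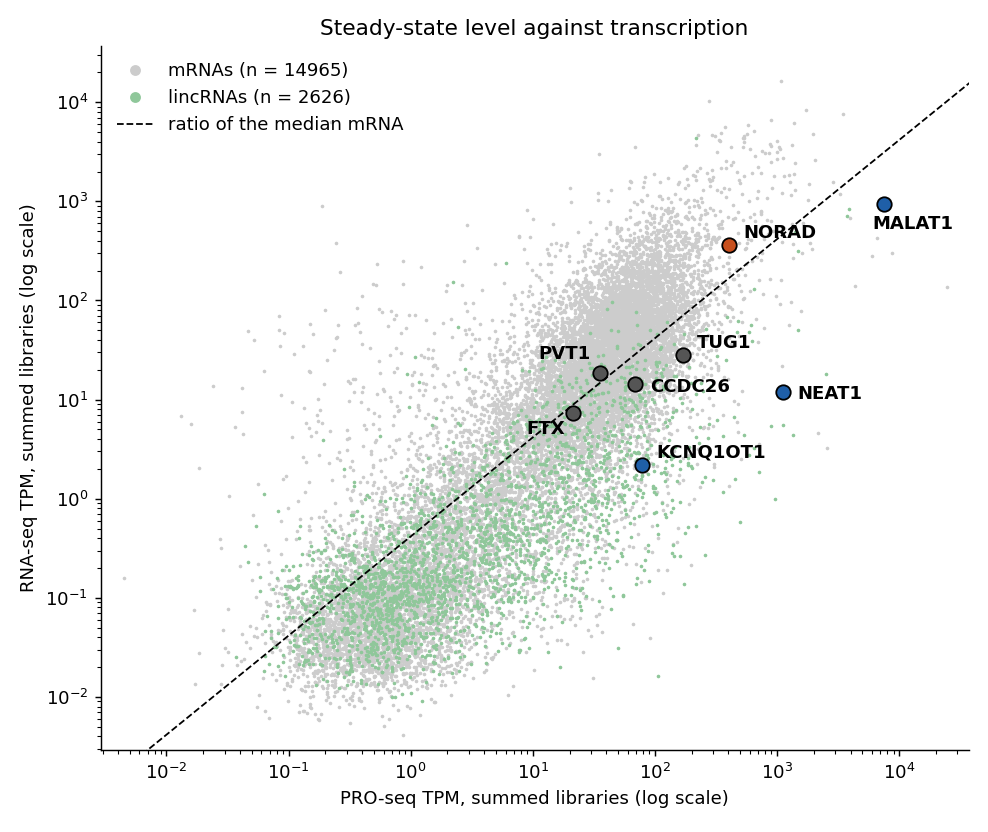
RNA-seq TPM against PRO-seq TPM, both from summed libraries and on log scales, for the mRNAs (grey) and lincRNAs (green) of the fit and the 8 members with a ratio (large points; blue nuclear, orange cytoplasmic, dark grey other). NEAT1 and KCNQ1OT1 sit far below the dashed line, which marks the ratio of the median mRNA, while NORAD sits above it.

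The levels of the members spread over several orders of magnitude, and transcription and steady-state level ranked them differently. MALAT1 was the most abundant in both assays. RNA-seq gave it 823, 1048, 828 and 1077 TPM in replicates 1 to 4, and PRO-seq 7565 and 7391 TPM. Of the mRNAs in the fit, 99.98% had a lower PRO-seq TPM and 99.1% a lower RNA-seq TPM.

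NEAT1 ranked 2 in transcription and 6 in steady-state level. PRO-seq gave it 1118 and 1112 TPM (mean 1115 ± 4.44, SD, n = 2), above 99.7% of mRNAs. RNA-seq gave 11.4, 12.4, 11.9 and 11.7 TPM (mean 11.9 ± 0.448, SD, n = 4), above 53.7% of mRNAs. The RNA-seq values span the long isoform as a whole, and RNA of the short isoform, which shares its 5′ part, cannot be told apart in them.

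NORAD showed the reverse order. Its PRO-seq level was 423 and 390 TPM, below that of NEAT1 in both libraries. Its RNA-seq level was 338, 374, 340 and 390 TPM (mean 360 ± 25.7, SD, n = 4), which did not overlap with that of any other member and was second to MALAT1. Summed over libraries, NORAD was transcribed at 0.365 times the level of NEAT1, with 0.351 and 0.378 in the PRO-seq libraries, and stood at 30.4 times its steady-state level, with 28.5 to 33.3 in the RNA-seq libraries.

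TUG1, a broadly expressed lncRNA linked to gene silencing, stood at 27.4, 26.6, 29.0 and 29.6 TPM in RNA-seq and at 164 and 174 TPM in PRO-seq. PVT1 (chr8:128806787-129199347, plus strand) starts 51.6 kb beyond the oncogene MYC and has 11 exons that fill 0.623% of its span. It stood at 18.0, 18.6, 20.5 and 16.9 TPM in RNA-seq and at 36.5 and 34.7 TPM in PRO-seq. CCDC26 (chr8:129916678-130587266, minus strand), a locus studied in myeloid leukemia, has 4 exons that fill 0.171% of a span of 670589 bp. It stood at 12.6, 14.7, 16.7 and 13.7 TPM in RNA-seq and at 69.5 and 69.1 TPM in PRO-seq.

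The RNA-seq ranges of PVT1 and CCDC26 came close to each other without overlap, while CCDC26 had the higher PRO-seq level of the pair in both libraries. CCDC26 also showed how unequal the depth of the assays can be for one TU. With exons that fill so little of its span, it had 222 RNA-seq counts (95% exact Poisson interval 194 to 253) and 24221 PRO-seq counts (23917 to 24528) in all. Such intervals cover counting error only, since the reads carry no molecular identifiers.

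FTX, a regulator of the X-inactivation gene XIST, was the least certain of the members with a ratio. RNA-seq gave 24, 25, 33 and 26 counts in replicates 1 to 4, or 5.73, 5.66, 11.7 and 8.05 TPM, so that replicate 3 stood well above the others. PRO-seq gave 21.3 and 21.4 TPM. Its RNA-seq range overlapped with that of NEAT1.

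KCNQ1OT1 had a low RNA-seq level, 2.18, 2.21, 2.01 and 2.37 TPM (mean 2.19 ± 0.146, SD, n = 4), and a PRO-seq level of 77.3 and 78.1 TPM, above that of CCDC26. Its depth was not low, with 2744 RNA-seq and 3679 PRO-seq counts in all. KCNQ1, the gene around it, held 2 and 79 counts, and exons of KCNQ1 covered 0.132% of KCNQ1OT1.

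Of the 10 genes, 8 had counts of the same transcript in both assays and entered the test. All 8 also passed minimum levels of 10 TPM for transcription and 1 TPM for steady-state RNA. Against the median mRNA, 5 members lay below (NEAT1, KCNQ1OT1, MALAT1, TUG1 and CCDC26), 2 lay above (NORAD and PVT1) and FTX passed in neither direction. In counts and shares, above and below a median mean called by the test, while lower means position alone. Over all TUs tested, 37.4% were called below and 31.6% above, and over the 2626 lincRNAs 45.2% were called below and 4.76% above. The lincRNAs had less signal to be called on, with a median RNA-seq level of 0.257 TPM beside 16.3 TPM for the members. By position alone more of them lay below 0, since their upper quartile was -0.34. The median of the 8 members was -1.14, beside -0.50 over all TUs and -1.62 over lincRNAs.

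NEAT1 had the lowest relative half-life of the members. It lay at -5.26 (SE 0.043), 38.2-fold below the median mRNA. Over the 8 pairs of 1 RNA-seq and 1 PRO-seq library, its log2 TPM ratio against the median mRNA ran from -5.49 to -5.22. The median mRNA was taken anew in each pair, as in the ranges of the other tested members. Of the mRNAs, 1.10% lay lower, and of the lincRNAs 4.42%. Its adjusted p was too small for the software to hold, and the largest over all alternatives tried was 2.22e-39.

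KCNQ1OT1 lay at -3.85 (SE 0.052), 14.4-fold below the median mRNA, with a range of -4.14 to -3.78 over the 8 pairs. Of the mRNAs, 4.05% lay lower. The largest adjusted p over the alternatives was 5.87e-34.

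MALAT1 lay at -1.69 (SE 0.034), 3.22-fold below the median mRNA, with a range of -2.07 to -1.52. The libraries of MALAT1 varied more than the spread that the fit shared between TUs. With a robust estimate of the spread, chosen after seeing the data, its adjusted p by edgeR was 6.70e-04. Of the lincRNAs, 48.7% lay lower than MALAT1.

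TUG1 lay at -1.30 (SE 0.073, edgeR adjusted p = 4.21e-69) and CCDC26 at -0.98 (SE 0.087, edgeR adjusted p = 5.03e-29). The CCDC26 value corresponds to a 1.98-fold difference, and a test against a 2-fold difference did not call it (edgeR adjusted p = 0.478).

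NORAD lay at 1.12 (SE 0.054, edgeR adjusted p = 1.63e-94), 2.18-fold above the median mRNA, with a range of 0.81 to 1.26 over the 8 pairs. Of the lincRNAs, 94.2% lay lower, and of the mRNAs 71.3%. Its value was 0.58 where TUs needed 10 summed counts per assay and 0.46 with the minimum TPM levels, still called above in both. With the minimum TPM levels NEAT1 was at -5.92, KCNQ1OT1 at -4.50, MALAT1 at -2.35, TUG1 at -1.96 and CCDC26 at -1.64, all still called below.

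PVT1 and FTX lay near the median mRNA. The side of PVT1 and the call of FTX changed with the setting. PVT1 was at 0.35 (SE 0.071, edgeR adjusted p = 1.66e-06), but was called below the median mRNA, at -0.19, where TUs needed 10 summed counts per assay (edgeR adjusted p = 0.0108), and at -0.31 with the minimum TPM levels (edgeR adjusted p = 1.08e-04). Both settings leave out TUs of low level and so move the median mRNA. FTX was at -0.23 (SE 0.14, edgeR adjusted p = 0.140), and below 0 in all 15 alternatives, from -0.89 to -0.17. The settings in which it was called below included those without RNA-seq replicate 3 (-0.49, edgeR adjusted p = 0.00447), with 10 summed counts per assay (-0.77, edgeR adjusted p = 9.28e-06) and with the minimum TPM levels (-0.89, edgeR adjusted p = 1.61e-06).

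**Figure D2:**
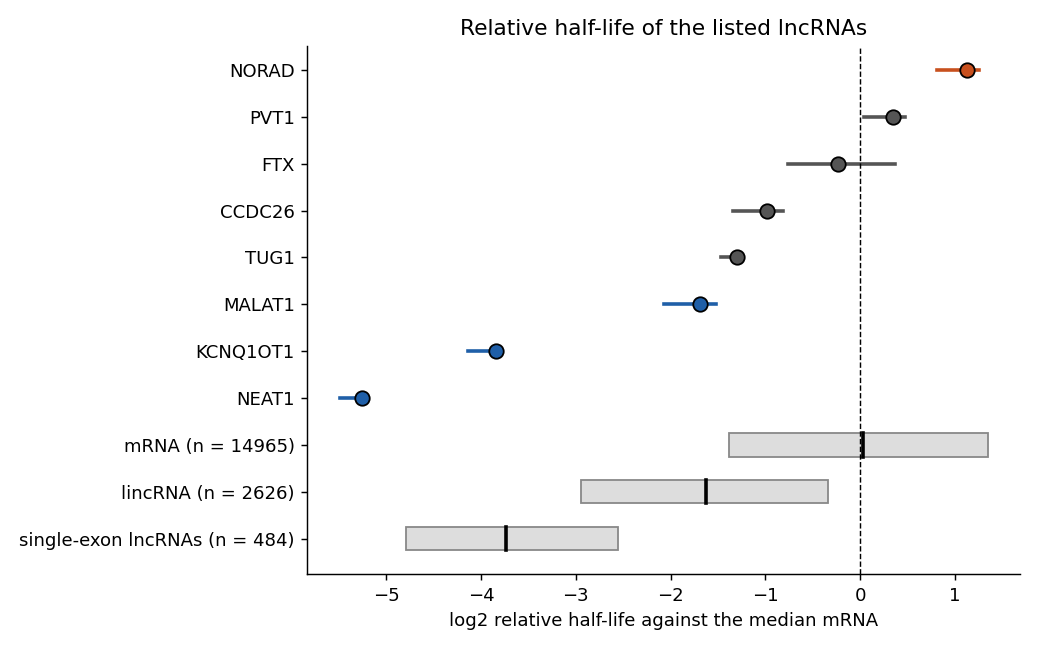
Log2 relative half-life against the median mRNA (dashed line at 0) for the 8 members with a ratio. Points are fitted values, lines the range of TPM ratios over the 8 pairs of libraries, and grey boxes the quartiles and median of mRNAs, lincRNAs and single-exon lncRNAs. NEAT1 (-5.26) and KCNQ1OT1 (-3.85) lie below the lower quartile of lincRNAs and NORAD (1.12) lies above their upper quartile.

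Against the median lincRNA the picture was divided differently. NEAT1 (-3.44) and KCNQ1OT1 (-2.02) were called below it, as were 12.0% of all TUs. NORAD (2.94), PVT1 (2.17), FTX (1.59), CCDC26 (0.84), TUG1 (0.52) and MALAT1 (0.13) were called above it, as were 52.3% of all TUs. The value of MALAT1 was close to 0 and did not keep its sign, since it was -0.038 by DESeq2 and -0.16 where TUs needed 10 summed counts per assay. With the robust spread its adjusted p by edgeR was 0.545. The lincRNA centre was set before refitting. On the mRNA scale MALAT1 lay at -1.69, just below the refitted lincRNA median of -1.62, so its side of the median lincRNA is not settled.

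The nuclear RNAs thus lay below the only cytoplasmic RNA with a value. The mean log2 relative half-life of NEAT1, MALAT1 and KCNQ1OT1, from summed TPM, was -3.62 against the median mRNA, and that of NORAD was 1.09. The difference was -4.72 and ran from -4.80 to -4.64 over the 8 pairs of libraries. No test was made of it, since OIP5-AS1 gave no ratio and the cytoplasmic side held 1 RNA. The nuclear RNAs also differed among themselves, by 3.57 between NEAT1 and MALAT1.

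The lowest members, NEAT1 and KCNQ1OT1, and the highest, NORAD, had a trait in common that the choice of genes did not use. Each was counted on a transcript of a single exon, so that exon length and span are the same and unspliced RNA counts fully as exonic. In a comparison added after these values were seen, the median was -3.73 among all 484 single-exon lncRNAs tested. It was -1.62 among 4523 lncRNAs with more exons. These classes also differed in median PRO-seq level, with 30.8 TPM for the first and 2.78 TPM for the second. Of the single-exon lncRNAs, 79.8% were called below the median mRNA and 0.620% (3 TUs) above it, NORAD among the latter. KCNQ1OT1 lay near the middle of this class, with 45.9% lower, and NEAT1 had 16.5% lower. NORAD ranked 5 from the top, with 99.0% lower. Among the 50 single-exon lncRNAs of at least 5 kb, the median was -3.26, with 2 above the median mRNA and 37 below. The part of exon number, length or transcription in these values was not tested.

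MALAT1 followed the close pairs of RNA-seq libraries. Its level was 1.29-fold higher in replicates 2 and 4 than in 1 and 3, while within the pairs it differed by 0.039 and 0.0088 on the log2 scale. Of 5506 TUs with at least 1000 RNA-seq counts, 99.8% differed less between the pairs. NORAD was 1.13-fold higher in replicates 2 and 4, a difference larger than in 91.4% of these TUs, and NEAT1 was 1.04-fold higher, larger than in 44.9%. The share of reads without a unique alignment split in the same way, from 24.5% to 24.9% in replicates 2 and 4 and from 27.9% to 28.0% in 1 and 3. The labels name no batch, and the part of this share in the MALAT1 level was not tested. Within pairs, the relative half-life of MALAT1 kept its side of the median mRNA, and with each pair summed to 1 library, chosen after seeing the data, it was -1.70.

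OIP5-AS1 and LINC-PINT had no ratio, and in both cases the counted features lay on top of others. OIP5-AS1 had 14, 12, 12 and 7 RNA-seq counts, or 1.47, 1.19, 1.88 and 0.954 TPM, and no PRO-seq count in either library. Its PRO-seq window lay to 99.8% within that of another counted TU on the same strand, the protein-coding gene ENSG00000285920 at chr15:41576211-41672941. That TU, which starts 46 bp beyond OIP5-AS1, held 80 and 87 PRO-seq counts and 0, 1, 0 and 2 RNA-seq counts. OIP5, the coding gene that OIP5-AS1 is named for, overlaps its end on the other strand and held 1514 RNA-seq and 558 PRO-seq counts. Exons on the other strand covered 23.6% of the OIP5-AS1 exons.

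LINC-PINT, a p53-responsive lncRNA, was divided among its 3 counted transcripts. The longest had no RNA-seq count, which allows up to 3 counts, and 524 and 528 PRO-seq counts. The transcripts with 5 and 4 exons lie within its span and had 35 and 50 RNA-seq counts in all and no PRO-seq count. Reads over the shared parts could not be assigned to 1 of them. Summed to the gene, LINC-PINT had 22, 32, 11 and 20 RNA-seq counts, and with PRO-seq counts taken over the 112202 bp of the longest transcript that no other LINC-PINT transcript covers, its relative half-life lay at -3.68 against the median mRNA, from -4.40 to -3.36 over the 8 pairs. TUs of other genes on the same strand overlap parts of this stretch. This gene-level value was chosen after seeing the data, rests on 85 RNA-seq counts and was not tested.

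The same pattern held across all TUs. Of 2748 TUs whose PRO-seq window lay wholly within TUs of the same strand, 96.6% had no PRO-seq count. This share was 41.7% of 4636 TUs within TUs of the other strand and 23.5% of 20037 TUs whose window no other counted TU overlapped. The PRO-seq count of 0 for OIP5-AS1 was not read as a level of transcription.

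**Figure D3:**
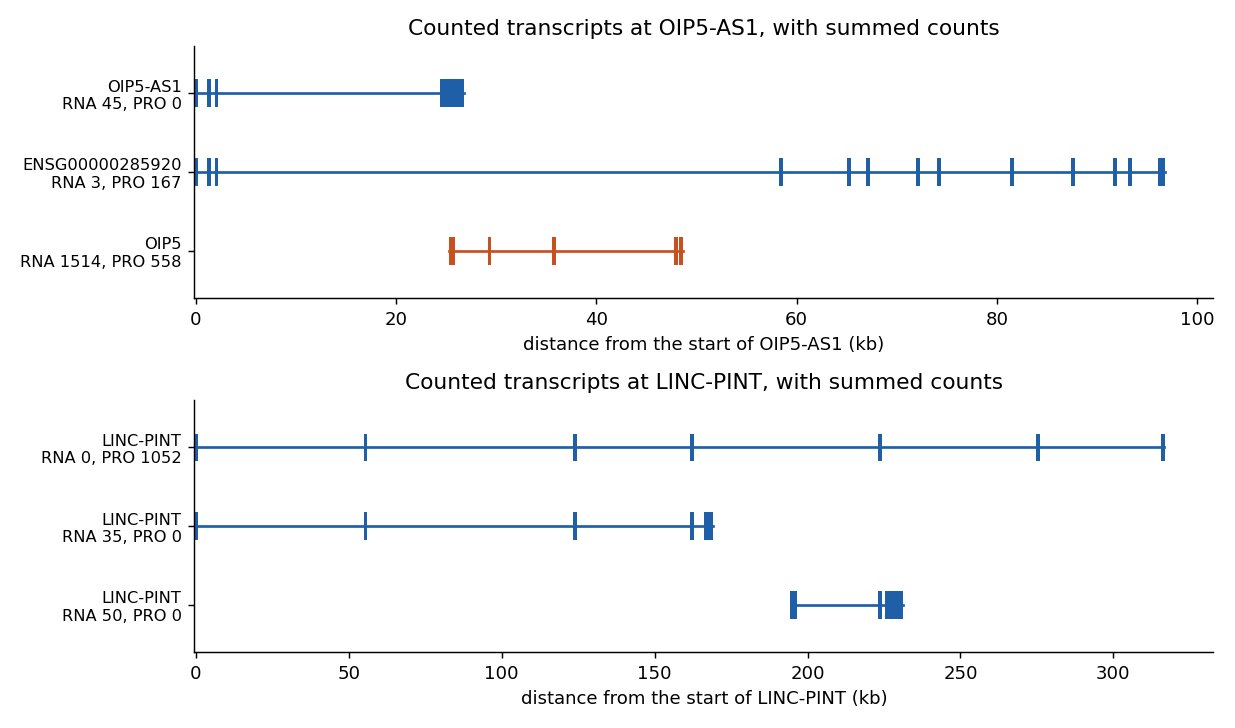
Counted transcripts at OIP5-AS1 (top) and LINC-PINT (bottom) by distance from the start of the lncRNA in kb, with exons as boxes (short exons drawn at a minimum width) and summed RNA-seq and PRO-seq counts at the left. Blue marks the strand of the lncRNA and orange the other strand. OIP5-AS1 lies under a longer TU on its own strand, which holds 167 PRO-seq counts, and the longest LINC-PINT transcript holds all 1052 PRO-seq counts of that gene.

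The mRNAs nearest to the members in both assays gave a measure of how common their levels are. Nearness was the Euclidean distance in log2 RNA-seq and log2 PRO-seq TPM of summed counts over all mRNAs of the fit. No mRNA came within 0.25 of NEAT1. The nearest was PPP1R10, a regulatory subunit of protein phosphatase 1, at a distance of 0.88, with 21.8 TPM in RNA-seq and 1096 TPM in PRO-seq. MALAT1 had no mRNA within 0.25 either, and its nearest, at 1.04, was a TU known by identifier alone, ENSG00000282988.

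KCNQ1OT1 was nearest to P2RY11, an ATP receptor gene, at 0.13, and had 6 mRNAs within 0.25. NORAD was nearest to SERBP1, which encodes an RNA-binding protein, with 333 TPM in RNA-seq and 419 TPM in PRO-seq, and had 3 mRNAs within 0.25. TUG1 had 24 within 0.25, with TLCD1 the nearest, CCDC26 had 67 (ZNF311), FTX had 74 (PLXNB2, a semaphorin receptor gene) and PVT1 had 128 (TAFAZZIN, an enzyme of cardiolipin remodelling).

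The proteins that work with NEAT1 and NORAD were encoded by mRNAs of varied relative half-life. Of 10 paraspeckle protein genes, 8 lay above the median mRNA and 2 below, beside 31.6% and 37.4% of all TUs. All TUs include noncoding ones, and their median was -0.50, beside 0.03 over mRNAs. The core paraspeckle gene NONO lay at 2.52 and SFPQ at 0.79, PSPC1 at 2.01 and HNRNPK, which acts on NEAT1 3′ end processing, at 2.89. MATR3 (-3.65) shared 94.7% of its exons with other TUs of its strand, and the PRO-seq window of RBM14 (6.02, from 5 PRO-seq counts) lay wholly within another TU, so neither value is that of the gene alone. PUM2 (-0.20), whose protein NORAD binds, lay close below the median mRNA, and RBMX, which encodes another NORAD-binding protein, at -1.03 (both past the threshold).

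Of 15 listed genes beside the members, 13 were tested, of which 5 lay above the median mRNA, 5 below and 3 passed in neither direction (KCNQ1, SLC22A18 and CNBD2). Of all TUs, noncoding ones included, 31.6% lay above and 37.4% below. MYC, beside PVT1, lay at -0.52 with 92.7 TPM in RNA-seq and 327 TPM in PRO-seq. In the imprinted domain of KCNQ1OT1, the cell cycle inhibitor gene CDKN1C was at 13.3 TPM in RNA-seq and lay at 1.15 (SE 0.40), and the placental growth regulator gene PHLDA2 lay at -2.44 (SE 0.72), each on 12 or fewer PRO-seq counts. OIP5 lay at 2.25 and MKLN1, beside LINC-PINT, at 2.87. FRMD8, beside NEAT1, lay at 1.11.

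Other well-known lncRNAs were taken from a list of 36 symbols, of which 28 were tested. Above the median mRNA lay 8, below it 15, beside 31.6% and 37.4% of all TUs and 4.76% and 45.2% of lincRNAs, and 5 passed in neither direction (HOTAIRM1, MIAT, MEG3 and MIR155HG, each with 12 or fewer RNA-seq counts, and CHASERR, named here after their values were seen). Their median was -0.81, beside -1.14 for the members. The highest were the small nucleolar RNA host genes SNHG29 (3.62) and SNHG5 (1.46), and DLEU1 (2.44), a lncRNA of a region often deleted in leukemia. The lowest were HCP5, SNHG7 (-3.04) and LINC00511. HCP5 had 2 RNA-seq counts beside 456 PRO-seq counts, which put it between -14.5 and -9.57 by counting error alone, and LINC00511 had 3 beside 144, which put it between -4.61 and -0.79.

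NEAT1 lay lower than 27 of these 28 lncRNAs. Of the 8 not tested, SNHG3, DANCR and CYTOR had RNA-seq counts and PRO-seq windows wholly within other TUs of their strand, H19, HOTAIR and HOTTIP had no count in at least 1 assay, and TERC and LINC01578, an older name of CHASERR, matched no counted TU.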

How the data were processed

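The authors deposited, for each library, raw read counts per transcript, made per the labels and methods with Cutadapt, HISAT2 and HTSeq on GRCh38 and GENCODE. No source used here gives versions, the strand setting or the annotation release. The counts are not normalized. The files are labelled as counts of the longest transcript, although some genes have several counted transcripts and that of MALAT1 stops short of the gene's end. Counts are over exons for RNA-seq and without 500 bp for PRO-seq, taken here as 500 bp at each end, as the methods say. Rows that name no TU (5 a library) held 66.5% to 68.6% of RNA-seq and 86.5% to 88.6% of PRO-seq records and were left out.

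Of 43172 identifiers, 37339 (86.5%) were joined by transcript ID to GENCODE release 44 on GRCh37, which gave lengths, classes, coordinates and transcript sequences. TPM used counts summed over libraries. edgeR 4.0.16 (R 4.3.3, glmQLFit, TMM, length offsets, all 6 libraries, at least 1 summed count in each assay) was fitted to RNA-seq against PRO-seq. It was centred on the median mRNA or lincRNA of a first fit. After refitting, the class medians lay at 0.03 and -1.62 on the mRNA scale. The lincRNA centre lay lower than -1.62, since NEAT1 was at -5.26 on the mRNA scale and at -3.44 against that centre. The spread that edgeR estimated was shared between TUs rather than set for each alone, which makes p-values small. The steps were tested on simulated data. Alternatives were DESeq2 1.42.0, other filters, scaling, lengths, left-out libraries, a 2-fold test, summed close pairs and a robust spread. Other scripts ran in Python 3.11.15.

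All members are named, and of each further list at most the 3 highest and 3 lowest past the test, with partners and neighbours named beside their member. The nearest mRNA was taken for each member. Members and lists were chosen with earlier results of these data known. Values of some listed genes are not reported here.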

Additional observations from a re-analysis of the deposited data

How the results depend on the processing

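The direction and call of NEAT1, KCNQ1OT1, NORAD and TUG1 against the median mRNA held under all 15 alternatives, as did those of MALAT1. Over them NEAT1 ran from -5.92 to -5.22, KCNQ1OT1 from -4.50 to -3.82, MALAT1 from -2.35 to -1.57 and NORAD from 0.46 to 1.24. PVT1 turned to -0.19 where TUs needed 10 summed counts per assay and to -0.31 with the TPM thresholds. MALAT1 against the median lincRNA turned to -0.038 by DESeq2 and -0.16 with at least 10 summed counts, and ran from -0.086 to 0.30 with 1 library left out (-0.086 without RNA-seq replicate 2, -0.034 without replicate 4). FTX was called below the median mRNA with at least 10 summed counts (-0.77), with the TPM thresholds (-0.89) and without RNA-seq replicate 3 (-0.49). Both filters leave out TUs of low level and so move the median mRNA, and replicate 3 held the highest RNA-seq level of FTX. Why the call changed was not tested further. In the test against a 2-fold difference, PVT1 and CCDC26 lost their call against the median mRNA, and MALAT1, TUG1 and CCDC26 theirs against the median lincRNA.

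The 2 members above the median mRNA became 1 with at least 10 summed counts, 1 with the TPM thresholds and 1 in the 2-fold test, and the 6 above the median lincRNA became 3 in the 2-fold test. With 1 library left out, 2 lay above the median mRNA, 5 to 6 below it and 5 to 6 above the median lincRNA. The counts over all TUs, 6671 above the median mRNA and 7881 below, became 4019 and 5066 with the TPM thresholds, where fewer TUs were tested, and 4207 above in the 2-fold test. With 1 library left out, 6262 to 6495 lay above and 6913 to 7496 below.

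The difference of -4.72 between nuclear RNAs and NORAD was -4.81 with 500 bp removed for PRO-seq, -4.51 with a pseudocount of 1 TPM and -4.99 from CPM without length. It was -4.59 without KCNQ1OT1 and -4.77 to -4.67 with 1 library left out. KCNQ1OT1 (-3.85) lay near the mean of the nuclear RNAs (-3.62), so leaving it out could change little. NEAT1 (-5.26) and MALAT1 (-1.69), which lay further from that mean, were not left out.

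RNA-seq and PRO-seq libraries share replicate numbers, but the differences between replicates 1 and 2 did not go together (r = -0.01 over 13822 TUs). With cells from a shared flask, such a value cannot show whether libraries were paired. The main fit did not use the numbers as pairs. With the replicate number as a block over replicates 1 and 2, 2 members lay above the median mRNA and 6 below, FTX (-0.72) among them, 6078 TUs lay above and 6472 below, and MALAT1 was at -0.050 against the median lincRNA.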
